A study of Astyanax mexicanus with 36 samples.

Results

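The genes ddx4 and tdrd1 were followed through growing oocytes of the Mexican tetra, Astyanax mexicanus, by bulk total RNA sequencing. They were chosen by their symbols and are 2 of the 27420 genes in the count table; each symbol had 1 entry there, ddx4 as ENSAMXG00000010288 and tdrd1 as ENSAMXG00000015146. The series holds 3 populations: the blind Pachón and Molino cavefish and the eyed surface fish. Oocytes were taken from the right ovaries of adults of matched age, about 520 days after fertilization, all labelled wild type and untreated. Each population was sampled at 4 oocyte sizes, called 40um, 40_100um, 100_300um and 300um after their labels, with 3 libraries per population and size and thus 36 libraries. What 40um and 300um stand for, a limit or a typical diameter, is not spelled out. Whether replicates of a group were different fish is not spelled out either. The p-values given weigh a difference between groups against the spread of samples within groups, a spread that may be technical.

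ddx4 encodes Vasa, a DEAD-box RNA helicase found in the germ cells of animals, where it sits in nuage, the granules at the surface of the nucleus in which piRNAs are made. tdrd1 encodes a scaffold protein with Tudor domains, which bind methylated arginines on PIWI proteins and so hold PIWI proteins and their partners in nuage; in zebrafish it is needed for piRNA function in the germ line. piRNAs are small RNAs that guide PIWI proteins to the transcripts of transposable elements, and the pathway is best known for silencing transposons in ovary and testis.

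The libraries held between 2992119 and 9345334 reads in genes. Across them ddx4 had between 199 and 8095 reads and tdrd1 between 138 and 4271 reads, so counting error alone was at most 8.51% of any value. The ovary label was checked against 10 oocyte factors, whose summed level lay between 1660 and 15500 CPM, read counts scaled to a library of fixed size, over the 36 libraries. Markers of follicle, blood and stromal cells were present too. The 46 such genes summed to between 1230 and 6490 CPM in the 40um libraries, against 201 to 630 CPM at 40_100um, 294 to 744 CPM at 100_300um and 374 to 1050 CPM at 300um. At 40um an average of 36.4% of reads were assigned to genes, compared with 67.7% at 40_100um, 64.7% at 100_300um and 59% at 300um. Library numbers form 1 series for 40um, another for both middle categories and a further one for 300um, so a size step that includes 40um or 300um cannot be told apart from a change of series.

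Both genes were lowest in the 40um oocytes and highest in the 40_100um oocytes of every population. ddx4 then had a lower mean at each larger size, though neither later step passed the threshold in edgeR's model of all 36 libraries. With each size fitted alone, ddx4 was higher in Pachón than in surface oocytes at the 3 sizes above 40um. tdrd1 went the other way between the populations: it was lower in Pachón than in surface oocytes at both middle sizes. In 1 model of all 36 libraries none of these Pachón calls was kept, and at 100_300um both calls depended on single libraries. So did the tdrd1 call at 40_100um. In Molino oocytes neither gene differed from surface fish past the threshold at any size.

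The ddx4 level, in CPM scaled with TMM, was 289, 163 and 75 in the 3 Pachón libraries at 40um, 325, 222 and 120 in the Molino libraries and 324, 129 and 130 in the surface libraries. At 40_100um it was 965, 898 and 919 CPM in Pachón, 820, 757 and 693 CPM in Molino and 667, 679 and 623 CPM in surface oocytes. The 3 populations overlapped fully at 40um, and at 40_100um they were separate, with every Pachón library above every Molino library and every Molino library above every surface library. Of these differences at 40_100um, edgeR called only that between Pachón and surface oocytes. At 100_300um ddx4 had 910, 731 and 744 CPM in Pachón, 496, 495 and 603 CPM in Molino and 580, 502 and 579 CPM in surface libraries. At 300um it had 715, 661 and 644 CPM in Pachón, 465, 430 and 449 CPM in Molino and 476, 410 and 459 CPM in surface libraries. At both larger sizes the Pachón libraries stood apart above the others, while Molino and surface libraries overlapped. The share of all genes whose populations separate in these ways was not counted.

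The tdrd1 level at 40um was 132, 83.4 and 52 CPM in Pachón, 223, 192 and 86.8 CPM in Molino and 294, 125 and 96.6 CPM in surface libraries. At 40_100um it was 362, 403 and 351 CPM in Pachón, 552, 560 and 581 CPM in Molino and 521, 476 and 429 CPM in surface libraries. At this size the order was Molino, surface, Pachón with no overlap, though edgeR did not call the difference between Molino and surface oocytes. At 40um the populations overlapped. At 100_300um tdrd1 had 351, 313 and 279 CPM in Pachón, 376, 369 and 369 CPM in Molino and 412, 356 and 420 CPM in surface libraries. At 300um it had 327, 306 and 292 CPM in Pachón, 343, 332 and 318 CPM in Molino and 372, 335 and 359 CPM in surface libraries. All 3 Pachón libraries were below all 3 surface libraries at both sizes, and Molino libraries reached into the surface range. Here too the share of all genes that separate in these ways was not counted.

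**Figure D1:**
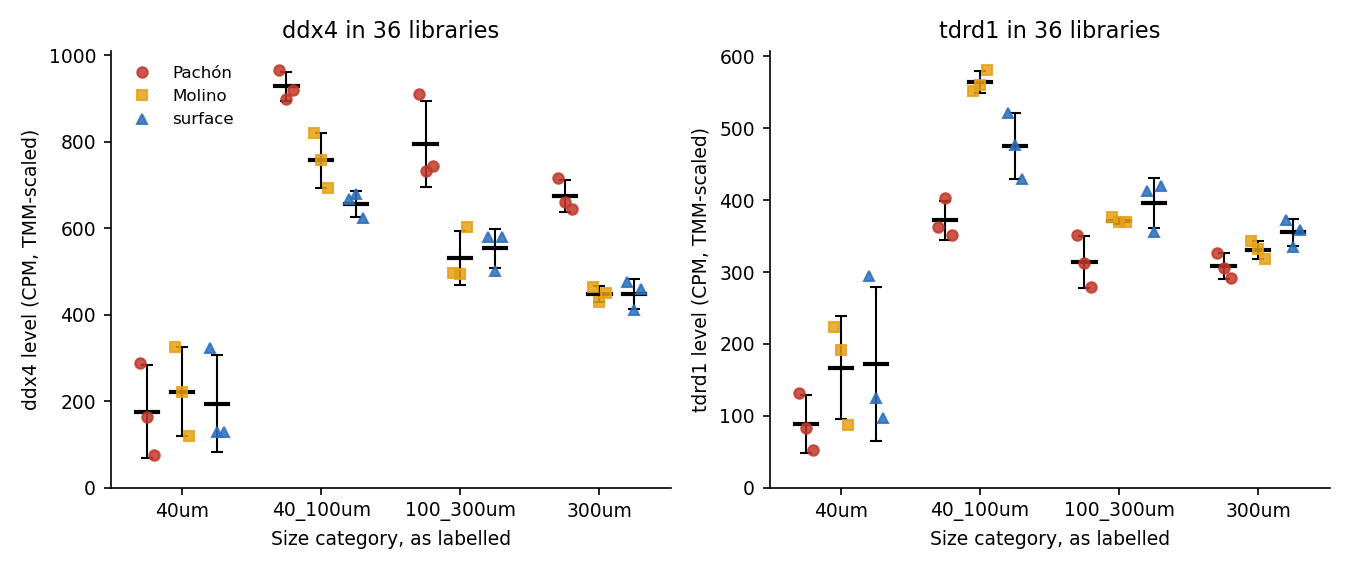
Level of ddx4 (left) and tdrd1 (right) in each of the 36 libraries, in CPM scaled with TMM, by size category and population; points are libraries, bars the mean and whiskers 1 SD of 3 libraries. Pachón libraries are highest for ddx4 above 40um, at 644 to 965 CPM, and the 40um libraries lie between 75 and 325 CPM.

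Ordered by mean level, ddx4 ran through Pachón 40_100um (928 ± 34.4 CPM), Pachón 100_300um (795 ± 99.7 CPM), Molino 40_100um (757 ± 63.4 CPM), Pachón 300um (673 ± 36.7 CPM) and surface 40_100um (656 ± 29.6 CPM; SD, n = 3 each). Neighbours among these 5 groups overlapped. Surface 100_300um (554 ± 44.6 CPM) and Molino 100_300um (531 ± 62 CPM) followed, overlapping each other and separate from surface 40_100um above and surface 300um below. Surface 300um (448 ± 34.6 CPM) and Molino 300um (448 ± 17.3 CPM) overlapped, and the 3 groups of 40um oocytes came last, between 176 ± 108 CPM in Pachón and 222 ± 102 CPM in Molino (SD, n = 3 each).

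For tdrd1 the order began with Molino 40_100um (564 ± 15.2 CPM) and surface 40_100um (475 ± 46.2 CPM), each separate from the next group down (SD, n = 3 each). From surface 100_300um (396 ± 34.8 CPM) through Pachón 40_100um (372 ± 27.2 CPM) and Molino 100_300um (371 ± 3.95 CPM) to surface 300um (355 ± 18.6 CPM), each group overlapped the one below it. The same held for Molino 300um (331 ± 12.5 CPM), Pachón 100_300um (314 ± 36.2 CPM) and Pachón 300um (308 ± 17.6 CPM). Surface, Molino and Pachón 40um oocytes came last, at 172 ± 107, 167 ± 71.5 and 89.3 ± 40.5 CPM (SD, n = 3 each).

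Oocyte growth was examined first, by comparing each size with the next smaller one. Averaged over the 3 populations, ddx4 was 3.92-fold higher at 40_100um than at 40um, with 780 ± 125 CPM at 40_100um and 197 ± 95.4 CPM at 40um (SD, n = 9 each). This log2 fold change was 1.97 (SE 0.20, 95% interval 1.57 to 2.37, adjusted p = 4.51e-10, edgeR's quasi-likelihood test with Benjamini-Hochberg adjustment over all genes). For tdrd1 the same step was 3.38-fold, with 470 ± 87.9 CPM at 40_100um and 143 ± 78.5 CPM at 40um (SD, n = 9 each) and a log2 fold change of 1.76 (SE 0.18, 95% interval 1.39 to 2.12, adjusted p = 6.66e-10). All 9 libraries at 40_100um were above all 9 at 40um for both genes, and the share of all genes that separate so was not counted. Most genes moved at this step: 73.5% of the 18259 genes tested passed the same threshold of 0.05, 29.8% upward and 43.8% downward, and the median over all genes was -0.32 on the log2 scale. In bulk RNA, fewer cells of a type and less RNA per cell cannot be told apart.

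The rise between 40um and 40_100um was called in each population. In Pachón oocytes the log2 fold change was 2.40 for ddx4 (SE 0.34, adjusted p = 1.38e-06) and 2.05 for tdrd1 (SE 0.31, adjusted p = 3.08e-06), where 57.8% of all genes were called. In Molino oocytes it was 1.77 for ddx4 (SE 0.34, adjusted p = 6.62e-05) and 1.75 for tdrd1 (SE 0.31, adjusted p = 2.44e-05), against 59.4% of genes called. In surface oocytes it was 1.75 for ddx4 (SE 0.34, adjusted p = 7.93e-05) and 1.46 for tdrd1 (SE 0.30, adjusted p = 0.000199), against 55% of genes called. The difference of this step between Pachón and surface fish was 0.64 for ddx4 (95% interval -0.30 to 1.59, adjusted p = 0.411) and 0.59 for tdrd1 (95% interval -0.28 to 1.46, adjusted p = 0.409), and 7.13% of genes passed that test. Between Molino and surface fish the difference was 0.01 for ddx4 (95% interval -0.93 to 0.96, adjusted p = 1) and 0.29 for tdrd1 (95% interval -0.57 to 1.15, adjusted p = 0.774), with 3.57% of genes passing. These intervals are wide, and neither gene's step was shown to differ between populations.

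The 40um libraries carried most of the spread. Replicates of 1 group differed there with a coefficient of variation of 46.1% to 61.3% for ddx4 and 42.7% to 62.1% for tdrd1, compared with 3.71% to 12.5% for ddx4 and 1.06% to 11.5% for tdrd1 at the larger sizes. In each population the 40um library with the lowest summed markers of other cells had the highest level of both genes. That library had 2140 CPM of such markers and 289 CPM of ddx4 in Pachón, 2930 CPM of markers and 325 CPM of ddx4 in Molino, and 1230 CPM of markers and 324 CPM of ddx4 in surface oocytes. At the other end were the Pachón 40um library with 5940 CPM of markers and 75 CPM of ddx4, the Molino library with 5890 and 120 CPM, and the surface library with 6490 and 129 CPM. The levels did not follow the marker sum throughout: the remaining surface library had 2980 CPM of markers, 130 CPM of ddx4 and the lowest surface tdrd1, 96.6 CPM. Between 40um and 40_100um, 12 of 13 granulosa genes, 3 of 3 steroid genes, 4 of 4 erythrocyte genes, 10 of 10 macrophage and leukocyte genes, 4 of 4 endothelial genes and 10 of 11 stromal genes fell, where 43.8% of all genes did. The remaining granulosa gene, cyp26a1, which encodes an enzyme that degrades retinoic acid, rose by 2.08 (SE 0.17, adjusted p = 1.42e-11). The part of these cells in the rise of ddx4 and tdrd1 was not tested.

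**Figure D2:**
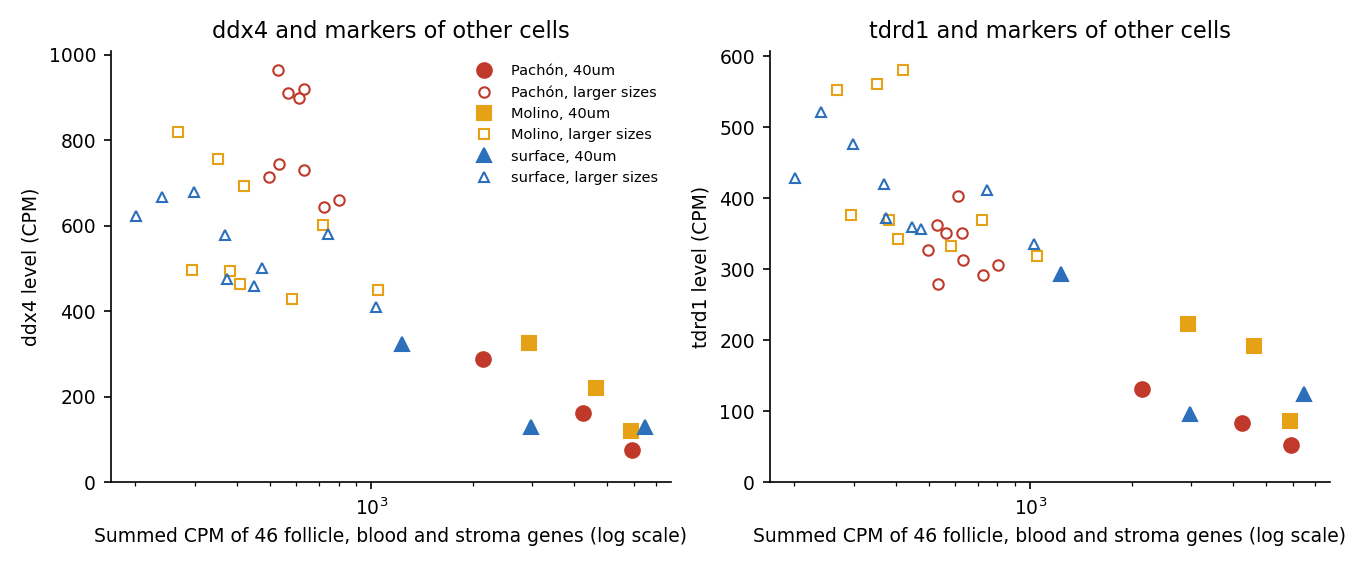
Level of ddx4 (left) and tdrd1 (right) in CPM against the summed level of 46 genes of follicle, blood and stromal cells in the same library, on a log scale; filled points are 40um libraries and open points the 3 larger sizes. All 9 libraries at 40um have marker sums of at least 1230 CPM and ddx4 levels of at most 325 CPM.

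A ratio of reads within 1 library does not depend on how libraries are scaled, and setting each gene against the 10 oocyte factors compares it with other transcripts of the oocyte. The ratio of ddx4 to the summed oocyte factors was higher at 40_100um than at 40um by 1.63 on the log2 scale, with means of -3.11 ± 0.18 at 40_100um and -4.74 ± 0.82 at 40um (SD, n = 9 each; two-sided permutation test enumerating all splits exactly, adjusted p = 0.00037 over 9 tests). It was higher in each population, by 2.21 in Pachón, 1.03 in Molino and 1.65 in surface oocytes. The permutation tests take all libraries as independent, although same-numbered libraries of a population deviated together at most size steps. The ratio of tdrd1 to the same factors was higher by 1.39 at this step (exact permutation test, adjusted p = 0.00913), with 1.76 in Pachón, 1.02 in Molino and 1.39 in surface oocytes. For ddx4 the libraries of the sizes were separate in each population. For tdrd1 they were separate in Pachón and Molino and overlapped in surface oocytes, where the log2 ratio was -3.75 to -3.42 at 40_100um and reached -3.72 at 40um. How many other genes separate so against these factors was not counted. The factors enter this sum unequally: zar1, zar1l, buc and zp2l1 averaged 1220, 1140, 942 and 918 CPM over the groups, compared with 47.1 CPM for gdf9 and 71.9 CPM for bmp15. Among the single oocyte factors, gdf9 and bmp15, growth factors secreted by the oocyte, rose with log2 fold changes of 2.19 (SE 0.17, adjusted p = 5.01e-12) and 2.02 (SE 0.22, adjusted p = 2.83e-09), values above those of ddx4 and tdrd1. The transcription factor gene figla fell by 0.98 (SE 0.27, adjusted p = 0.00174), and zar1, a maternal factor that binds RNA, stood at -0.16 (SE 0.28, adjusted p = 0.618). As a list, 4 of the 10 oocyte factors rose and 2 fell, with a median of 0.03, where 29.8% of all genes rose, 43.8% fell and their median was -0.32.

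Between 40_100um and 100_300um, the only step within 1 series of library numbers, both genes were lower on average in every population. ddx4 had 627 ± 141 CPM at 100_300um and 780 ± 125 CPM at 40_100um, and tdrd1 had 360 ± 44.1 CPM at 100_300um and 470 ± 87.9 CPM at 40_100um (SD, n = 9 each). In the model of all 36 libraries the log2 fold changes were -0.33 for ddx4 (SE 0.19, adjusted p = 0.184) and -0.37 for tdrd1 (SE 0.17, adjusted p = 0.0962), and did not pass; 33% of genes did. With only the 18 libraries of these sizes they were -0.40 for ddx4 (adjusted p = 9.75e-05) and -0.44 for tdrd1 (adjusted p = 2.08e-05), where 52.1% of genes passed. Leaving out the 40um libraries alone gave -0.42 for ddx4 (adjusted p = 1.14e-05) and -0.46 for tdrd1 (adjusted p = 1.72e-06), with 53.3% of genes passing. The tagwise dispersion of ddx4 was 0.0787 and that of tdrd1 0.0663 in the model of all 36 libraries, against 0.0121 and 0.0127 among the 40_100um libraries and 0.0146 and 0.0127 among the 100_300um libraries. The part of the 40um libraries in these calls was not tested. With all 36 libraries the step also passed for both genes in DESeq2's Wald test (-0.40, adjusted p = 0.0455 for ddx4 and -0.45, adjusted p = 0.0143 for tdrd1), where 40.3% of genes passed. With edgeR on all 36 libraries, tdrd1 alone passed with DESeq2 size factors (-0.45, adjusted p = 0.0246) and without the 50 most abundant genes (-0.45, adjusted p = 0.0393), and with library totals neither did (-0.12, adjusted p = 0.677 for ddx4 and -0.16, adjusted p = 0.512 for tdrd1). Relative to the median of all genes, which these settings shift, the step was -0.52 for ddx4 in each of these 3 and in the model above, and -0.57 to -0.56 for tdrd1.

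Within the populations the same step was -0.22 for ddx4 and -0.24 for tdrd1 in Pachón oocytes, -0.51 and -0.60 in Molino oocytes and -0.25 and -0.26 in surface oocytes, with adjusted p between 0.174 and 0.751 in the model of all libraries. Molino and surface libraries at 100_300um did not overlap those at 40_100um for either gene, and Pachón libraries did. The share of all genes without such overlap was not counted. The percentage of genes called was 8.41% in Pachón, 15.4% in Molino and 3.91% in surface oocytes. In neither cave population was this step shown to differ from that in surface fish for either gene (differences between -0.34 and 0.02, adjusted p between 0.975 and 1). Of all genes, 0.011% passed that edgeR test for Pachón and 0% for Molino, where 6.64% had an unadjusted p under 0.05. Against the oocyte factors, however, ddx4 gained at this step: the log2 ratio was higher by 0.44, with -2.67 ± 0.21 at 100_300um and -3.11 ± 0.18 at 40_100um (SD, n = 9 each; exact permutation test, adjusted p = 0.000926), and the gain was 0.78 in Pachón, 0.18 in Molino and 0.38 in surface oocytes. The libraries of the sizes were separate in Pachón and surface oocytes and overlapped in Molino. For tdrd1 the difference was 0.40, with 0.76 in Pachón, 0.09 in Molino and 0.36 in surface oocytes (exact permutation test, adjusted p = 0.101). That test mixes the populations. When sizes were exchanged only within a population, an exact permutation test chosen after seeing the data, the tdrd1 gain passed (adjusted p = 0.00169 over 9 tests). In this tdrd1 ratio Pachón and surface libraries did not overlap between the sizes, while Molino libraries did. For neither ratio was the share of all genes that separate so counted. Of the 10 oocyte factors 6 fell at this step and 0 rose with edgeR (0 also at an unadjusted p under 0.05 and with DESeq2), where 24.6% of all genes rose and 8.37% fell. Their median was -0.64 compared with 0.19 over all genes, and zar1 fell by 1.06 on the log2 scale (SE 0.28, adjusted p = 0.00459).

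Between 100_300um and 300um, ddx4 had 523 ± 116 CPM at 300um and 627 ± 141 CPM at 100_300um, and tdrd1 had 332 ± 24.8 CPM at 300um and 360 ± 44.1 CPM at 100_300um (SD, n = 9 each). The log2 fold changes were -0.26 for ddx4 (SE 0.19, 95% interval -0.65 to 0.12, adjusted p = 0.989) and -0.12 for tdrd1 (SE 0.17, 95% interval -0.47 to 0.24, adjusted p = 1), and 0.4% of genes were called. In each population ddx4 libraries at 300um lay below those at 100_300um without overlap, with log2 fold changes of -0.24 in Pachón, -0.25 in Molino and -0.30 in surface oocytes, and none was called (adjusted p = 1 in each). How many of all genes separated in this way was not counted. The percentage of genes called by edgeR in these single populations was 0% in Pachón, 0.00548% in Molino and 0% in surface oocytes, and 3.54%, 2.54% and 4.08% had an unadjusted p under 0.05. The ratio of ddx4 to the oocyte factors was lower by 0.22 at 300um (exact permutation test, n = 9 each, adjusted p = 0.0343), with differences between -0.26 and -0.19 on leaving out each of the 18 libraries. That call was lost in 10 of the 18 cases: without any Pachón library at 100_300um, Pachón replicate 1 at 300um, any Molino library at 300um, surface replicate 2 at 100_300um, or surface replicate 1 or 3 at 300um. The ratio of tdrd1 to the factors stood at -0.08 (exact permutation test, adjusted p = 0.685). Neither gene's step was shown to differ between a cave population and surface fish (differences between -0.01 and 0.13, adjusted p = 1), an edgeR test that 0% of genes passed, with 1.65% under an unadjusted p of 0.05 for Pachón and 1.37% for Molino.

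The populations were then compared within each size, to see where cavefish oocytes differ from those of surface fish. At 40_100um, ddx4 was 1.34-fold higher in Pachón than in surface oocytes (log2 fold change 0.42, SE 0.11, 95% interval 0.18 to 0.66, adjusted p = 0.0122). At the same size tdrd1 was lower in Pachón, at 0.742 of the surface level (log2 fold change -0.43, SE 0.11, 95% interval -0.68 to -0.18, adjusted p = 0.0113). Leaving out Pachón replicate 1 (-0.35, adjusted p = 0.0507) or Pachón replicate 3 (-0.38, adjusted p = 0.0518) ended the tdrd1 call, as did 1 model of all 36 libraries (-0.35, adjusted p = 0.444), and the ddx4 call held without each of the 6 libraries. Of the 14377 genes tested, 33.2% were called, 16.8% higher and 16.4% lower, and 54.8% of genes had a larger absolute change than ddx4. The marker sums of other cells were 530 to 630 CPM in these Pachón libraries and 201 to 298 CPM in the surface libraries. Within these sums, cyp26a1 averaged 317 CPM in Pachón and 157 CPM in surface libraries. Of the 10 oocyte factors 5 were higher in Pachón, with a median of 0.48 compared with 0.00 over all genes. By edgeR 0 of the 10 were lower, against 1 at an unadjusted p under 0.05 and 0 with DESeq2. Their part in the difference of ddx4 was not tested.

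At 100_300um ddx4 was 1.40-fold higher in Pachón than in surface oocytes (log2 fold change 0.48, SE 0.13, 95% interval 0.19 to 0.77, adjusted p = 0.0265), and tdrd1 stood at 0.772 of the surface level (log2 fold change -0.37, SE 0.12, 95% interval -0.63 to -0.11, adjusted p = 0.0461). Here 19.9% of 15494 genes were called, 10% higher and 9.86% lower. Granulosa markers summed to 371 to 426 CPM in Pachón against 213 to 355 CPM in surface libraries. Within that sum, cyp26a1 averaged 309 CPM in Pachón and 108 CPM in surface libraries. Each other granulosa gene averaged at most 23.6 CPM in Pachón and 68.1 CPM in surface libraries. These other genes went both ways. Lower in Pachón were notch3 (23.6 against 68.1 CPM) and inha (6.84 against 17.1 CPM), and higher were igf3 (15.1 against 2.83 CPM) and inhbb (11.1 against 5.61 CPM). Of the 10 oocyte factors 1 was higher in Pachón (median 0.07). The part of these markers and factors was not tested. Both calls lay close to the threshold: leaving out single libraries gave ddx4 values between 0.38 and 0.55, called in 3 of 6 cases, and tdrd1 values between -0.46 and -0.30, called in 2 of 6 cases. The ddx4 call was lost without Pachón replicate 1 (0.38, adjusted p = 0.0899), Pachón replicate 3 (0.52, adjusted p = 0.0509) or surface replicate 2 (0.41, adjusted p = 0.0764). The tdrd1 call was lost without Pachón replicate 2 (-0.35, adjusted p = 0.129), Pachón replicate 3 (-0.30, adjusted p = 0.181), surface replicate 1 (-0.32, adjusted p = 0.0886) or surface replicate 3 (-0.34, adjusted p = 0.106). The tdrd1 call was also lost with DESeq2 size factors (-0.37, adjusted p = 0.054), with no filter on low counts (-0.35, adjusted p = 0.0913), with only these populations fitted (-0.39, adjusted p = 0.0789), without the libraries with raised markers of other cells (-0.32, adjusted p = 0.0816) and in 1 model of all 36 libraries (-0.33, adjusted p = 0.539). With only these populations fitted the ddx4 call was lost too (0.47, adjusted p = 0.0558).

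At 300um ddx4 was higher in Pachón than in surface oocytes (log2 fold change 0.59, SE 0.11, 95% interval 0.35 to 0.82, adjusted p = 0.00231), against 32.4% of 15214 genes called (15.9% higher and 16.5% lower), and the call held on leaving out each of the 6 libraries. In 1 model of all 36 libraries none of the 3 ddx4 differences between Pachón and surface oocytes passed, with 0.50, 0.52 and 0.59 from 40_100um to 300um and adjusted p = 0.306, 0.344 and 0.242. At 300um 4 of 10 oocyte factors were also higher in Pachón than in surface oocytes, with a median of 0.54 compared with -0.03 over all genes. Granulosa markers summed to 342 to 478 CPM in Pachón against 197 to 199 CPM in surface libraries, and all markers of other cells to 499 to 802 CPM in Pachón against 374 to 1030 CPM in surface libraries. Within the granulosa sum, cyp26a1 averaged 325 CPM in Pachón and 103 CPM in surface libraries. Each other granulosa gene averaged at most 17.9 CPM in Pachón and 25.9 CPM in surface libraries. These too went both ways, with lhcgr lower in Pachón (17.7 against 25.9 CPM) and igf3 higher (17.9 against 11.2 CPM). The part of the oocyte factors and these markers in the difference of ddx4 was not tested. For tdrd1 the log2 fold change was -0.20 (SE 0.10, 95% interval -0.42 to 0.01, adjusted p = 0.138), although the 3 Pachón libraries lay below the 3 surface libraries. At 40um the log2 fold changes were -0.10 for ddx4 (SE 0.61, 95% interval -1.45 to 1.26, adjusted p = 0.952) and -0.90 for tdrd1 (SE 0.57, 95% interval -2.18 to 0.37, adjusted p = 0.422), with 2.88% of genes called. Leaving out 1 library at a time gave values between -0.62 and 0.47 for ddx4 and between -1.28 and -0.29 for tdrd1, with no call. With all 36 libraries in 1 model the tdrd1 value at 40um was -0.94 and passed (adjusted p = 0.0244), where 23.1% of genes did. Granulosa markers at 40um summed to 1100 to 2180 CPM in Pachón and 259 to 904 CPM in surface libraries, with a median log2 fold change of 1.73 over 12 genes, and the median of 4 early germ cell and meiosis genes was -1.79. Their part in the tdrd1 value was not tested. The intervals at 40um are wide enough to hold the values seen at every larger size.

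Set against Molino, Pachón oocytes had 1.52-fold more ddx4 at 100_300um (log2 fold change 0.60, SE 0.13, adjusted p = 0.00719) and 1.52-fold more at 300um (0.60, SE 0.11, adjusted p = 0.0017), where 25% and 34.5% of genes were called (13.5% higher and 11.5% lower at 100_300um, 18.5% higher and 15.9% lower at 300um). At 40_100um the value was 0.21 (SE 0.11, adjusted p = 0.15), against 37.6% of genes called (19.4% higher, 18.2% lower). tdrd1 was lower in Pachón than in Molino at 40_100um, at 0.627 of the Molino level (log2 fold change -0.67, SE 0.12, adjusted p = 0.00055). At 100_300um and 300um tdrd1 stood at -0.22 (SE 0.12, adjusted p = 0.198) and -0.09 (SE 0.10, adjusted p = 0.507). At 40um neither gene passed, with -0.22 for ddx4 (adjusted p = 0.884) and -0.80 for tdrd1 (adjusted p = 0.507), and 3.18% of genes did. Some markers were called between Pachón and Molino as well, to be read beside the shares of all genes given above. At 40_100um the markers of other cells summed to 530 to 630 CPM in Pachón and 267 to 419 CPM in Molino, 5 of 10 tested granulosa genes were higher in Pachón (median 2.22), and 4 of 10 oocyte factors were higher and 1 lower (median 0.48). At 100_300um 3 of 12 granulosa genes and 2 of 10 oocyte factors were higher in Pachón, and at 300um 2 of 11 and 4 of 10, with oocyte medians of 0.04 and 0.50. Their part in the differences of ddx4 and tdrd1 was not tested. In 1 model of all 36 libraries the ddx4 calls at 100_300um (0.58, adjusted p = 0.268) and 300um (0.59, adjusted p = 0.241) and the tdrd1 call at 40_100um (-0.60, adjusted p = 0.144) were lost.

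In Molino against surface oocytes no call was made for either gene. From the smallest to the largest size the ddx4 log2 fold changes were 0.13 (SE 0.61, adjusted p = 0.964), 0.20 (SE 0.11, adjusted p = 0.191), -0.12 (SE 0.13, adjusted p = 0.587) and -0.02 (SE 0.11, adjusted p = 0.945). Those of tdrd1 were -0.10 (SE 0.57, adjusted p = 0.967), 0.24 (SE 0.11, adjusted p = 0.129), -0.15 (SE 0.12, adjusted p = 0.434) and -0.11 (SE 0.10, adjusted p = 0.489). The percentages of genes called were 0.521%, 29.5%, 14.6% and 16.5%. From 40_100um to 300um, 14.1%, 6.63% and 7.35% of genes were higher in Molino and 15.4%, 7.95% and 9.13% lower. At 40_100um both genes lay above surface fish in all 3 Molino libraries, with intervals of -0.04 to 0.45 for ddx4 and 0.00 to 0.49 for tdrd1. What share of all genes separates so was not counted. These comparisons share the surface libraries with Pachón over surface and the Molino libraries with Pachón over Molino, so their values are given side by side only.

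**Figure D3:**
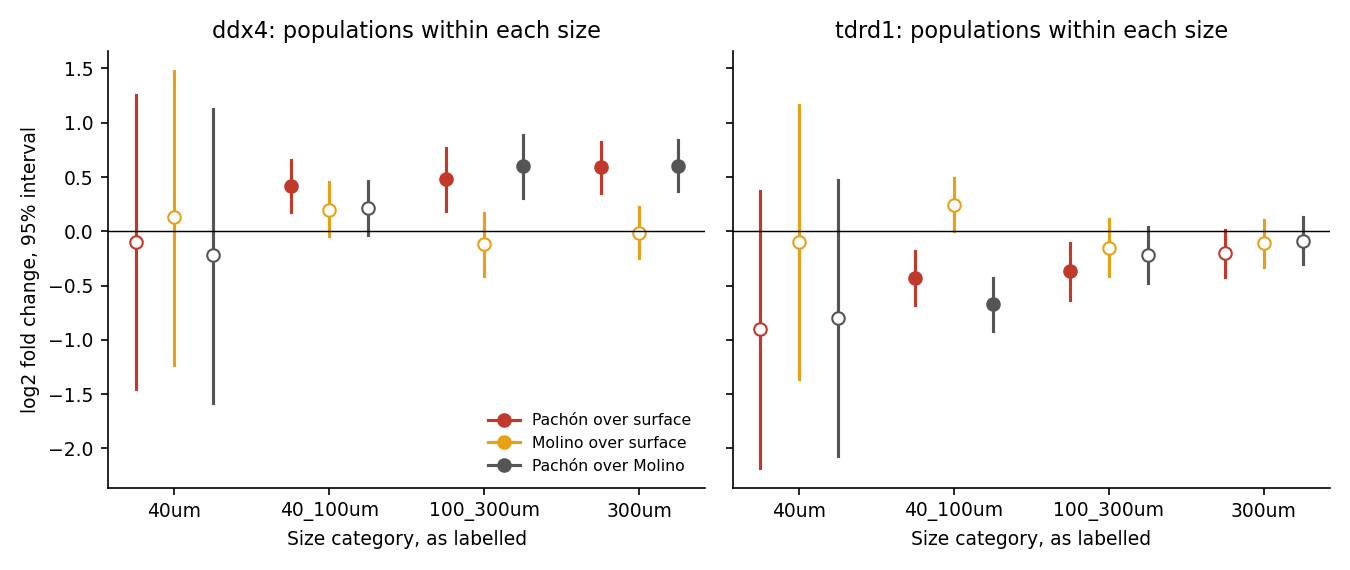
Log2 fold change of ddx4 (left) and tdrd1 (right) between populations within each size category, with 95% intervals; filled points passed an adjusted p of 0.05 and open points did not. ddx4 in Pachón is above surface at the 3 larger sizes, at 0.42, 0.48 and 0.59, and tdrd1 in Pachón is below surface at -0.43, -0.37 and -0.20.

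With each size fitted alone, ddx4 was higher and tdrd1 lower in Pachón than in surface oocytes at both middle sizes. At 300um ddx4 was higher and tdrd1 did not pass. The difference between the genes was read as the ratio of their reads within a library. There were 0.546 tdrd1 reads per ddx4 read at 40um, 0.401 at 40_100um, 0.396 at 100_300um and 0.458 at 300um in Pachón oocytes (geometric means, n = 3 each). In Molino oocytes the ratios were 0.756, 0.747, 0.702 and 0.740, and in surface oocytes 0.870, 0.722, 0.714 and 0.793, in the same order of sizes. Reads are not per transcript length, so only differences in this ratio are read. On the log2 scale Pachón was lower than surface by 0.67 at 40um, 0.85 at 40_100um, 0.85 at 100_300um and 0.79 at 300um, and the Pachón and surface libraries did not overlap at any size. The exact permutation test of 3 against 3 libraries gave p = 0.1 at each size, the smallest it allows, two-sided. Pachón and Molino libraries were also separate at the 3 larger sizes, with log2 differences of -0.90, -0.83 and -0.69 (exact p = 0.1 each), and overlapped at 40um. The share of other gene pairs whose ratio separates the populations in these ways was not counted.

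Molino libraries overlapped surface libraries in this ratio at 40um, 40_100um and 100_300um, with log2 differences of -0.20, 0.05 and -0.03. At 300um all 3 Molino libraries were lower, by 0.10 (exact p = 0.1, the smallest possible). Across sizes the log2 ratio of tdrd1 to ddx4 differed by -0.24, -0.04 and 0.15 between neighbouring sizes, from the smallest up (exact permutation tests, n = 9 each, adjusted p = 0.339, 0.792 and 0.609). With sizes exchanged only within a population the first and last of these passed (exact permutation tests, adjusted p = 0.0251, 0.471 and 0.00495). From 40um to 40_100um the ratio differed by -0.45 in Pachón, -0.02 in Molino and -0.27 in surface oocytes, and the libraries of the sizes were separate in Pachón and overlapped in the other two. From 100_300um to 300um it was higher by 0.21 in Pachón, 0.08 in Molino and 0.15 in surface oocytes. There the Pachón libraries lay at -1.14 to -1.11 at 300um against -1.42 to -1.22 at 100_300um. The surface libraries lay at -0.36 to -0.29 at 300um against -0.50 to -0.46 at 100_300um. Both were without overlap, and Molino libraries overlapped. How many gene pairs separate in these ways was not counted.

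The populations were also compared in the ratios to the oocyte factors. The median log2 fold change of these factors in Pachón over surface oocytes was 0.48 at 40_100um, 0.07 at 100_300um and 0.54 at 300um. Their summed level was 7450 to 10600 CPM in Pachón and 5080 to 6160 CPM in surface libraries at 40_100um. At 100_300um it was 3880 to 4740 CPM in Pachón and 3140 to 4030 CPM in surface libraries. At 300um it was 4400 to 5640 CPM in Pachón and 2650 to 3910 CPM in surface libraries. Their part in the ratios was not tested. At 40um tdrd1 had 0.00854 to 0.0178 reads per read of the 10 factors in Pachón, 0.038 to 0.0516 in Molino and 0.0132 to 0.0757 in surface libraries, and Pachón overlapped surface. tdrd1 had 0.034 to 0.0541 reads per read of the 10 factors in the 3 Pachón libraries at 40_100um, against 0.0882 to 0.0928 in Molino and 0.0745 to 0.0937 in surface libraries. At 100_300um the ratio was 0.0682 to 0.0807 in Pachón, 0.0904 to 0.104 in Molino and 0.104 to 0.113 in surface libraries. At 300um it was 0.058 to 0.0683 in Pachón, 0.0883 to 0.102 in Molino and 0.0951 to 0.127 in surface libraries. At these 3 larger sizes the Pachón libraries were below the others, with no overlap. The share of all genes whose ratio to these factors separates so was not counted, here or for ddx4 below. For ddx4 the ratio overlapped between Pachón and surface libraries at 40_100um (0.0907 to 0.121 in Pachón, 0.108 to 0.134 in surface) and at 300um (0.127 to 0.148 in Pachón, 0.122 to 0.155 in surface). At 100_300um Pachón libraries were higher, at 0.182 to 0.192, against 0.144 to 0.160 in surface libraries. In Molino libraries the ddx4 ratio was 0.109 to 0.138 at 40_100um and 0.124 to 0.132 at 300um, overlapping Pachón at both sizes. At 100_300um the Molino ratio was 0.127 to 0.148, below Pachón. At 40um the ddx4 ratio was 0.0186 to 0.0347 in Pachón, below Molino (0.0553 to 0.0633) and within the surface range (0.0177 to 0.0778).

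**Figure D4:**
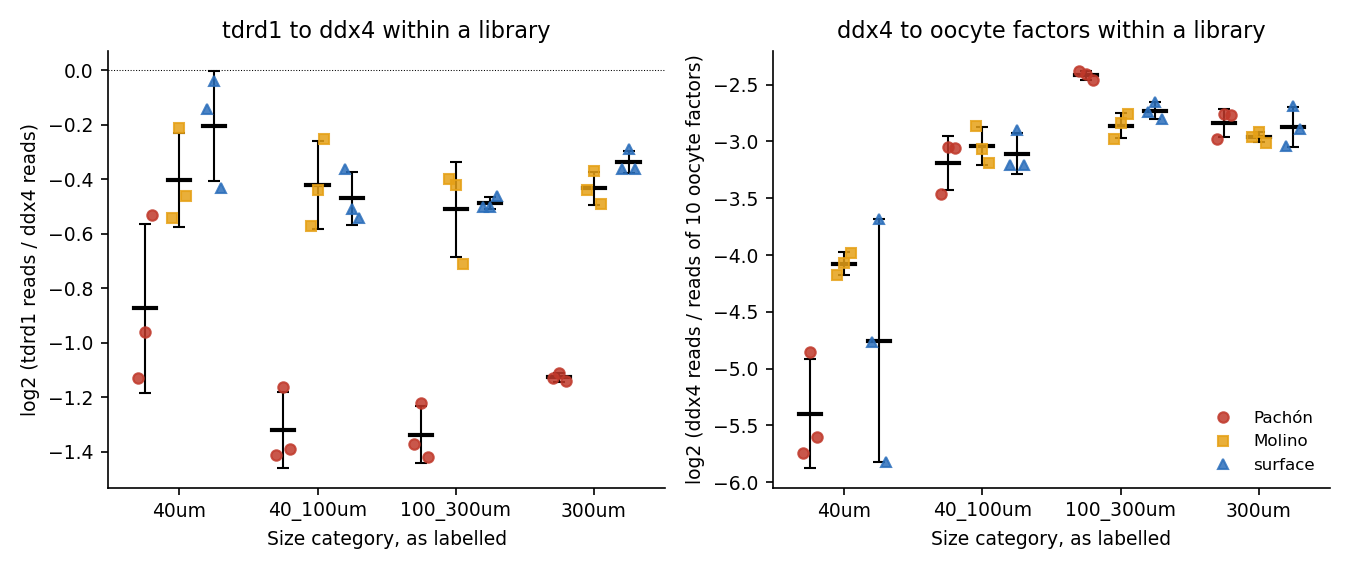
Log2 ratio of tdrd1 to ddx4 reads (left) and of ddx4 reads to the summed reads of 10 oocyte factors (right) within each library, by size category and population; points are libraries, bars the mean and whiskers 1 SD of 3 libraries. On the left Pachón lies below surface at each size, by 0.67 to 0.85; on the right the ratio at 40um averages -4.74, against -3.11 at 40_100um.

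The other piRNA pathway genes were taken from a list of 34 symbols, of which 21 matched a gene in the table and all 21 were tested, ddx4 and tdrd1 among them. The list was made by protein group, such as all Tudor proteins. A role in the pathway was not shown here for each member. Between 40um and 40_100um, on average over the populations, 15 of the 21 rose, 1 fell and 5 did not pass, where 29.8% of all genes rose and 43.8% fell. Taken singly, 12 rose and 1 fell in Pachón, 15 rose in Molino, and 9 rose and 2 fell in surface oocytes, with medians of 1.13, 0.98 and 0.13, where 57.8%, 59.4% and 55% of all genes were called. The median was 0.68 compared with -0.32 over all genes. The number that fell was between 0 and 3 under other settings. Of the PIWI proteins, which carry piRNAs, piwil2 rose by an average log2 fold change of 0.52 (SE 0.22, adjusted p = 0.034), with 0.82 in Pachón (adjusted p = 0.0686), 0.95 in Molino (adjusted p = 0.0348) and -0.20 in surface oocytes (adjusted p = 0.684). On average piwil1 fell by 0.60 (SE 0.22, adjusted p = 0.0146). Among 10 Tudor genes 7 rose. They were tdrd1, tdrd3 (1.93, SE 0.13, adjusted p = 2.76e-13), tdrd6, a germ plasm protein in zebrafish (1.56, SE 0.16, adjusted p = 8.65e-10), tdrd15 (1.55, SE 0.21, adjusted p = 1.01e-07), tdrkh, a partner of PIWI proteins at mitochondria in mice (1.45, SE 0.19, adjusted p = 7.95e-08), tdrd9, a helicase with a Tudor domain (0.89, SE 0.20, adjusted p = 0.000277), and tdrd7a (0.68, SE 0.24, adjusted p = 0.014). STK31, tdrd7b and snd1 stood at 0.25, -0.76 and -0.16 and did not pass.

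Of 5 genes of piRNA biogenesis and nuage 4 rose at this step: ddx4, henmt1, which methylates the ends of piRNAs (1.01, SE 0.20, adjusted p = 4.83e-05), pld6, an enzyme of the mitochondrial surface (0.66, SE 0.15, adjusted p = 0.000317), and fkbp6, a co-chaperone in piRNA loading in mice (0.50, SE 0.19, adjusted p = 0.0224). The fifth, asz1, stood at 0.36 (adjusted p = 0.105). The enzyme complex that methylates arginines, the marks Tudor domains bind, is made of prmt5, clns1a and WDR77 products: prmt5 rose by 1.62 (SE 0.11, adjusted p = 4.35e-13) and clns1a by 0.59 (SE 0.19, adjusted p = 0.0066), while WDR77 stood at 0.39 (adjusted p = 0.108). The chromatin ATPase gene morc2 rose by 1.44 (SE 0.09, adjusted p = 1.55e-13). Among 34 other DEAD-box helicases 23 rose and 6 fell, with a median of 0.76 compared with -0.32 over all genes, of which 29.8% rose and 43.8% fell. These are averages over the populations, and singly 22 helicases rose and 6 fell in Pachón, 25 and 6 in Molino and 15 and 5 in surface oocytes. In these single populations 57.8%, 59.4% and 55% of all genes were called, in either direction. The 3 largest values among the 21 genes of the list were those of ddx4, tdrd3 and tdrd1.

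Between 40_100um and 100_300um 3 of the 21 rose, 4 fell and 14 did not pass, with a median of -0.28 compared with 0.19 over all genes, of which 24.6% rose and 8.37% fell. With library totals 0 of the 21 fell and 3 rose, on a scale where the median of all genes was 0.40. tdrd15 (0.77, SE 0.19, adjusted p = 0.00311), fkbp6 (0.74, SE 0.18, adjusted p = 0.00269) and tdrd3 (0.45, SE 0.12, adjusted p = 0.00473) rose. piwil1 (-0.58, SE 0.22, adjusted p = 0.0384), tdrd9 (-0.55, SE 0.20, adjusted p = 0.0364), prmt5 (-0.28, SE 0.11, adjusted p = 0.0381) and snd1, a nuclease with a Tudor domain (-0.24, SE 0.08, adjusted p = 0.0149), fell. In the fit of the 18 libraries of these sizes 14 of the 21 fell, ddx4 and tdrd1 included, where 52.1% of all genes were called in either direction. Among the 34 other DEAD-box helicases 8 rose and 7 fell. At the last step, to 300um, 0 of the 21 piRNA genes and 0 of the 34 helicases passed edgeR's test in either direction, with medians of -0.11 and -0.13, where 0.4% of all genes were called. At an unadjusted p under 0.05 there were 0 piRNA genes and 2 helicases, both lower, and DESeq2 called 0 of either list.

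In Pachón against surface oocytes genes of the list went both ways, as did all genes. At 40_100um 5 of 21 genes were higher and 5 lower (median 0.08), where 16.8% of all genes were higher and 16.4% lower. At 100_300um 3 were higher and 2 lower (median 0.01), where 10% of all genes were higher and 9.86% lower. At 300um 5 were higher and 3 lower (median 0.17), where 15.9% of all genes were higher and 16.5% lower. In either direction 33.2%, 19.9% and 32.4% of all genes were called, and their medians were 0.00, -0.03 and -0.03. tdrd9 was higher at all 3 sizes, with log2 fold changes of 1.00 (SE 0.13, adjusted p = 9.84e-05), 0.86 (SE 0.15, adjusted p = 0.00332) and 1.21 (SE 0.13, adjusted p = 0.000136). So was tdrd3, at 0.87, 0.99 and 1.00 (adjusted p = 0.000594, 0.00126 and 4.88e-05). piwil1 was higher at 40_100um (0.80, SE 0.19, adjusted p = 0.00737) and 300um (0.91, SE 0.18, adjusted p = 0.00408). On the lower side were tdrd7b, at -2.58, -2.24 and -3.21 (adjusted p = 0.00359, 0.0175 and 0.00372), and fkbp6 at 40_100um (-1.33, SE 0.32, adjusted p = 0.00655) and 300um (-0.70, SE 0.20, adjusted p = 0.0233). tdrd15 was lower at 40_100um (-0.87, SE 0.22, adjusted p = 0.00939). tdrd7b rests on few reads, 812 over all 36 libraries. Its mean level at 40_100um was 1.09 CPM in Pachón, 0.527 CPM in Molino and 6.28 CPM in surface oocytes.

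In Molino against surface oocytes 5 genes were higher and 2 lower at 40_100um, 0 higher and 2 lower at 100_300um, and 1 higher and 1 lower at 300um, where 29.5%, 14.6% and 16.5% of all genes were called. Of all genes 14.1%, 6.63% and 7.35% were higher and 15.4%, 7.95% and 9.13% lower. The medians of the 21 genes were 0.13, -0.02 and -0.04. At 100_300um 2 genes were higher at an unadjusted p under 0.05 and DESeq2 called 0 higher. At 40_100um the higher ones were henmt1 (0.61, adjusted p = 0.0376), tdrkh (0.59, adjusted p = 0.000984), tdrd9 (0.49, adjusted p = 0.0117), snd1 (0.48, adjusted p = 0.0025) and piwil2 (0.43, adjusted p = 0.0169). tdrd7b was lower at all 3 sizes (-3.51, -3.46 and -3.42, adjusted p = 0.000885, 0.00367 and 0.00512), and WDR77 at 40_100um (-0.91, adjusted p = 0.00241) and 100_300um (-0.80, adjusted p = 0.0111). In Pachón against Molino oocytes 5 were higher and 7 lower at 40_100um, 4 higher and 1 lower at 100_300um, and 8 higher and 1 lower at 300um. Of all genes 19.4%, 13.5% and 18.5% were higher and 18.2%, 11.5% and 15.9% lower. tdrd3 was higher in Pachón than in Molino at all 3 sizes (1.25, 0.97 and 1.15), as was tdrd9 (0.50, 0.84 and 1.16), and fkbp6 was lower (-1.13, -1.12 and -1.05). At 40um 0 of the 21 genes passed edgeR's test in Pachón against surface, Molino against surface or Pachón against Molino oocytes, where 2.88%, 0.521% and 3.18% of all genes did. At an unadjusted p under 0.05, 2, 4 and 0 of the 21 were lower and 0 higher, and DESeq2 called 2, 1 and 0 lower.

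**Figure D5:**
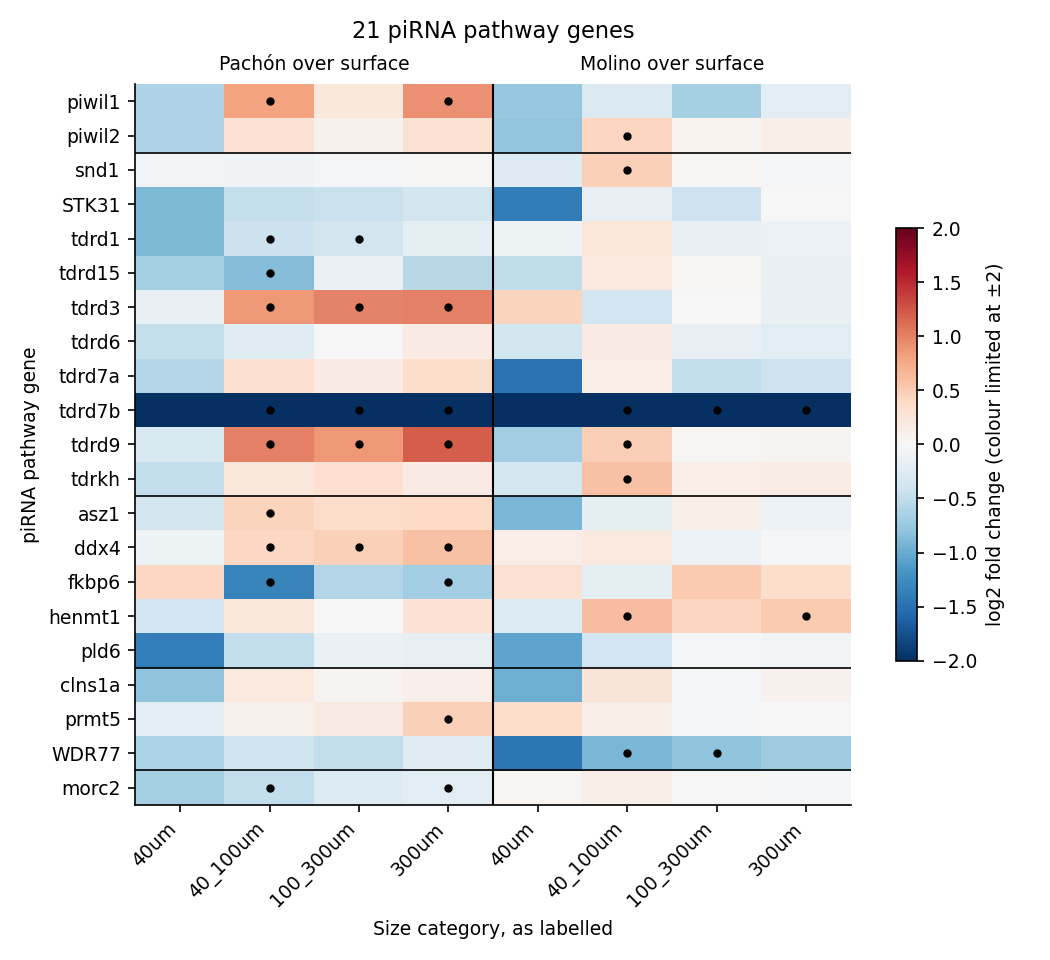
Log2 fold change of the 21 piRNA pathway genes in Pachón over surface (left block) and Molino over surface (right block) oocytes at each size, with colour limited at 2 in either direction and dots where the adjusted p was below 0.05. ddx4 and tdrd9 are higher and tdrd1 lower in Pachón at 40_100um and 100_300um, and tdrd7b is lower in both cave populations at the 3 larger sizes.

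Of 10 tested genes for germ plasm and germ cell RNA-binding proteins, 7 rose and 1 fell between 40um and 40_100um on average over the populations (median 0.48), where 29.8% of all genes rose, 43.8% fell and their median was -0.32. Taken singly, 7 rose in Pachón, 2 rose in Molino, and 2 rose and 2 fell in surface oocytes, with medians of 0.89, 0.44 and 0.29. Of all genes 57.8%, 59.4% and 55% were called in these steps, in either direction. buc, the organiser of the Balbiani body in zebrafish oocytes, rose by 1.80 (SE 0.21, adjusted p = 1.32e-08), and cpeb1a, which controls polyadenylation in the cytoplasm, fell by 1.54 (SE 0.32, adjusted p = 0.000104). The mean cpeb1a level went from 16.7 to 14.4 CPM in Pachón, from 16.2 to 7.31 CPM in Molino and from 14.5 to 1.5 CPM in surface oocytes. Both buc and cpeb1a are also among the 10 oocyte factors, so the lists share them. Between 40_100um and 100_300um 1 rose and 3 fell, against 24.6% and 8.37% of all genes, led by cpeb1b (-0.81, SE 0.19, adjusted p = 0.00213) and rbpms2b (-0.79, SE 0.21, adjusted p = 0.0053), and at the last step 0 passed with edgeR (1 lower at an unadjusted p under 0.05, and 0 with DESeq2). In Pachón against surface oocytes cpeb1a was higher at 40_100um (3.17, SE 0.39, adjusted p = 5.44e-05) and 300um (2.78, SE 0.33, adjusted p = 0.000246), as was cpeb1b (0.60 and 0.77, adjusted p = 0.00735 and 0.00107). Few reads underlie cpeb1a, 1859 over all 36 libraries. It averaged 14.4 CPM in Pachón against 1.5 CPM in surface oocytes at 40_100um, and 12.4 against 1.78 CPM at 300um. From 40_100um to 300um edgeR called 2 higher and 0 lower, 0 higher and 1 lower, and 2 higher and 1 lower of the 10, against 33.2%, 19.9% and 32.4% of all genes called. The counts of 0 were 2 lower at 40_100um and 1 higher at 100_300um at an unadjusted p under 0.05, and 0 with DESeq2. In Molino against surface oocytes 1 was higher and 5 lower at 40_100um, where 14.1% of all genes were higher and 15.4% lower, including rbpms2b (-0.80, SE 0.13, adjusted p = 0.000533) and dnd1 (-0.64, SE 0.15, adjusted p = 0.00643), both RNA-binding proteins of germ cells. The edgeR counts were 0 higher and 3 lower at 100_300um (0 higher also at an unadjusted p under 0.05 and with DESeq2), and 1 higher and 2 lower at 300um, where 14.6% and 16.5% of all genes were called.

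The genes whose log2 CPM followed ddx4 most closely over the 36 libraries were mcm6l (Pearson r 0.977), ppan (0.974), lmnl3 (0.971), SLC4A1AP (0.971) and pus7 (0.970). For tdrd1 they were dnmt3bb.2 (0.977), buc (0.976), prmt9 (0.976), cdk2 (0.976) and men1 (0.975). These values describe libraries that share the large step from 40um to 40_100um and the same scaling, among 10007 genes with a symbol. Over the 27 libraries without 40um the closest were dnajc2 (0.963) for ddx4 and eprs1 (0.934) for tdrd1, so none of the first 5 stayed in the first 5 for either gene. ddx4 and tdrd1 themselves had r = 0.900 over 36 libraries and 0.229 over 27.

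In the RefSeq annotation of the AstMex3_surface assembly, the span of tdrd1 overlaps 2 other protein-coding genes and that of ddx4 overlaps 0. The libraries were directional, but no source used here states whether reads were counted by strand, so reads shared with an overlapping gene are uncertain for tdrd1. One of them, CCDC186, is in the table. It rose between 40um and 40_100um, the step of tdrd1's largest change, with a log2 fold change of 0.71 (SE 0.12, adjusted p = 9.7e-06). It was not called in Pachón against surface oocytes, with -0.14 at 40_100um (adjusted p = 0.454), 0.12 at 100_300um (adjusted p = 0.643) and -0.04 at 300um (adjusted p = 0.825).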

How the data were processed

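Total RNA of 36 oocyte samples was depleted of ribosomal RNA and sequenced as directional libraries, per the labels' protocols. STAR 2.7.10b and RSEM were used, per the submitters' processing notes, and the sources used here give neither genome build nor counting options. The deposited table of raw counts holds whole reads per gene and 4 entries of unassigned reads, which were left out (on average 20.5% of a library in no gene, 12.6% multimapping, 9.59% unmapped and 0.315% ambiguous). The deposited normalised signal table equals edgeR's CPM with TMM scaling for all 18259 genes (relative tolerance 1e-06) and was used only in that check. Every test used the counts.

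Low genes were removed by filterByExpr (10 reads as its count minimum and 15 as its total minimum). TMM scaling was followed by the robust quasi-likelihood test of edgeR 4.0.16 in R 4.3.3, adjusted over all genes by Benjamini-Hochberg at 0.05. Populations were compared in the 9 libraries of each size; size steps, and their differences between populations, in all 36. Log2 ratios within libraries used reads plus 0.5 and two-sided exact permutation tests, adjusted over 9. Likeness is Pearson's r of log2 CPM (prior count 2) among genes with a symbol and a mean log2 CPM of at least 2; the 5 highest are named. Every listed piRNA gene may be named in the size steps, and up to 4 called members of each list with the largest change in a population comparison. Alternatives were DESeq2 1.42.0 size factors and its Wald test, library totals, no filter, leaving out the 50 most abundant genes, other choices of libraries, a replicate block, a ratio offset of 5 reads, leaving out the most abundant oocyte factor, and each library left out in turn. Leaving out 4 libraries with raised markers of other cells, and permuting sizes within populations (8000 permutations), were chosen after seeing the data. The gene tests were also run on simulated counts, in which few genes changed and all others had the same mean share of reads in every group. Far more genes changed in these data, so no result here rests on that simulation. Same-numbered libraries deviated together (every correlation over 0.1) in 7 of 21 comparisons, all of them size steps within a population. Their correlations reached 0.596. The permutation tests of the ratios between sizes did not keep such libraries together and take them as independent. The genes and lists were chosen with earlier results of these data known.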

Additional observations from a re-analysis of the deposited data

How the results depend on the processing

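Of 24 population comparisons, 6 averaged size steps, 12 differences of steps and 9 ratios, all kept their direction where they were called, and no called value reversed. With all 36 libraries in 1 fit, ddx4 in Pachón over surface was 0.50 (adjusted p = 0.306), 0.52 (0.344) and 0.59 (0.242) from 40_100um to 300um, and in Pachón over Molino 0.58 (0.268) at 100_300um and 0.59 (0.241) at 300um, so these calls were lost. In the same fit tdrd1 lost its calls at 40_100um, with -0.35 over surface (0.444) and -0.60 over Molino (0.144), and at 100_300um over surface, with -0.33 (0.539); at 40um it was called, with -0.94 over surface (0.0244) and -0.90 over Molino (0.0335). This fit called 23.1% of genes in Pachón over surface at 40um, 19.5% at 40_100um, 11.8% at 100_300um and 14% at 300um, against 2.88%, 33.2%, 19.9% and 32.4% with each size fitted alone. At 100_300um the Pachón over surface call of tdrd1 was lost with DESeq2 size factors (-0.37, adjusted p = 0.054), with no expression filter (-0.35, 0.0913), with only both populations fitted (-0.39, 0.0789) and without the libraries with raised markers (-0.32, 0.0816), and that of ddx4 with only both populations fitted (0.47, 0.0558). Library totals added calls for tdrd1 in Pachón over Molino at 100_300um (-0.29, 0.0446) and 300um (-0.25, 0.0243) and over surface at 300um (-0.32, 0.00914), on a scale where the median of all genes was -0.06, -0.17 and -0.15. Relative to that median these values were -0.23, -0.08 and -0.17, against -0.22, -0.08 and -0.17 with TMM. The step from 40_100um to 100_300um was also called with DESeq2's Wald test for ddx4 (-0.40, 0.0455) and tdrd1 (-0.45, 0.0143), and for tdrd1 with DESeq2 size factors (-0.45, 0.0246) and without the 50 most abundant genes (-0.45, 0.0393); with library totals it was -0.12 for ddx4 (0.677) and -0.16 for tdrd1 (0.512), where the median of all genes was 0.40 in place of 0.19, so that relative to that median both scalings gave -0.52 for ddx4 and -0.56 for tdrd1. The fits of 18 and 27 libraries gave ddx4 values of -0.40 (9.75e-05) and -0.42 (1.14e-05) and tdrd1 values of -0.44 (2.08e-05) and -0.46 (1.72e-06) at this step. On leaving out each library in turn, tdrd1 ranged between -0.52 and -0.35 (Pachón over surface, 40_100um), -0.46 and -0.30 (100_300um) and -0.48 and -0.34 (40_100um to 100_300um, called only without surface replicate 1 of 100_300um), and ddx4 between 0.38 and 0.55 (Pachón over surface, 100_300um). The ratio of ddx4 to oocyte factors from 100_300um to 300um ranged between -0.26 and -0.19, and was -0.26 (0.059) without the libraries with raised markers. With sizes permuted within populations, an alternative chosen after seeing the data, the ratio of tdrd1 to ddx4 passed from 40um to 40_100um (-0.24, 0.0251) and from 100_300um to 300um (0.15, 0.00495), and that of tdrd1 to oocyte factors from 40_100um to 100_300um (0.40, 0.00169). With a replicate block ddx4 was 2.05 and tdrd1 1.83 from 40um to 40_100um, and the block changed no call of either gene in any comparison or step. It moved the share of all genes called at 40um to 9.35% in Pachón over surface, 1.21% in Molino over surface and 7.02% in Pachón over Molino, against 2.88%, 0.521% and 3.18% without it. Of the 21 piRNA genes, 4 fell from 40_100um to 100_300um, against 9 with DESeq2 size factors, 0 with library totals, 8 without the 50 most abundant genes, 12 with DESeq2's Wald test and 14 in the fits of 18 and 27 libraries. In the same order 33%, 35.8%, 37.1%, 35.1%, 40.3%, 52.1% and 53.3% of all genes were called in either direction. In Pachón over surface the 36 library fit called 2 higher and 2 lower at 40_100um (5 and 5 with each size fitted alone), 1 and 1 at 100_300um (3 and 2) and 2 and 1 at 300um (5 and 3), and without the libraries with raised markers 5 were higher at 100_300um and 1 lower at 300um. Without those libraries 30.2% of all genes were called at 100_300um and 28.8% at 300um. The cause of these changes was not tested.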

Other observations

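In Pachón against surface oocytes 5 of the 34 other DEAD-box helicases were higher and 7 lower at 40_100um, 4 higher and 3 lower at 100_300um, and 6 higher and 3 lower at 300um, with medians of -0.05, 0.05 and 0.00. Of all genes 33.2%, 19.9% and 32.4% were called in these comparisons. In Molino against surface oocytes the counts were 7 higher and 3 lower, 1 higher and 1 lower, and 2 higher and 1 lower, with medians of 0.12, 0.08 and 0.04, and 29.5%, 14.6% and 16.5% of all genes were called. Genes of early germ cells and meiosis were few in the table: of 5 tested genes 1 rose and 2 fell between 40um and 40_100um, with a median of -1.05 where 29.8% of all genes rose and 43.8% fell, and 1 rose at the next step, where the median was 0.07, compared with 24.6% of all genes that rose and an overall median of 0.19.

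Neighbours on each side of both genes came from RefSeq's AstMex3_surface annotation. They were protein-coding genes with a symbol in these data, without those that overlap ddx4 or tdrd1. CCDC186, which overlaps tdrd1, was thus left out. Of the 5 tested neighbours of ddx4, edgeR called 1 lower in Pachón than in surface oocytes at 40_100um. It called 2 lower and 1 higher at 100_300um, and 2 lower at 300um. Of the 5 tested neighbours of tdrd1 it called 1 lower at 40_100um, 1 lower at 100_300um and 2 lower at 300um. The shares of all genes called lower were 16.4%, 9.86% and 16.5%, and 10% were called higher at 100_300um.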
